A study of Mus musculus with 24 samples.

Results

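The genes described here encode the machinery that burns fatty acids in the liver. They are 34 genes of beta-oxidation and ketone body formation, out of 14995 genes counted. They were taken by name from a fixed list, which was drawn up with earlier results of these data known. All 34 passed the filter on low counts, as did 13121 genes in all. RNA was sequenced from 24 liver samples of mice, described as obese in the series title, with 8 samples in each of 3 groups, collected 20 weeks after surgery. Sham mice had a sham operation. RYGB mice had a Roux-en-Y gastric bypass, an operation that makes a small stomach pouch and joins it to a lower stretch of small intestine. WM mice were held to the body weight of the RYGB mice by calorie restriction. The labels used here give no strain, age, sex, diet or feeding state at collection, and say that the tissue of every library was liver.

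Fatty acids are first joined to coenzyme A by acyl-CoA synthetases. The carnitine shuttle then carries them into mitochondria, where repeated rounds of dehydrogenation, hydration, dehydrogenation and thiolysis release acetyl-CoA, and the electrons pass through the electron transfer flavoprotein to the respiratory chain. Peroxisomes shorten very long and branched chains with a parallel set of enzymes and hand the products on as carnitine esters. In liver, surplus acetyl-CoA is turned into ketone bodies, which other organs burn during fasting. PPAR alpha, the fatty acid receptor encoded by Ppara, is the transcription factor best known for driving many of these genes.

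Library totals lay between 13659647 and 17391377 counts for Sham, 14208021 and 22766612 for WM, and 14002193 and 19958019 for RYGB. Levels are in CPM, counts relative to a TMM-scaled library size, and are listed as the lowest, median and highest of the 8 libraries of a group. Errors of log2 fold changes are standard errors from edgeR's quasi-likelihood fit to all 24 libraries, and a gene is called where its Benjamini-Hochberg adjusted p over the 13121 genes is under 0.05. Libraries were primed at the 3′ end of the RNA, so CPM values are not divided by length. The summed level of 7 hepatocyte markers, all 7 of them present, spanned 29705 to 71026 CPM for Sham, 73652 to 133902 for WM and 77634 to 133202 for RYGB, so that both treated groups lay above Sham for the very cell type that holds these enzymes. In bulk tissue, fewer cells of a type and less RNA per cell cannot be told apart, and the part of the hepatocyte level in the results was not tested. The 7 Kupffer cell markers also summed higher in the treated groups (48.8 to 239 CPM for Sham, 184 to 504 for WM, 147 to 767 for RYGB), while the 7 stellate and matrix markers summed lower (134 to 314, 39.4 to 101 and 50.03 to 83.4 CPM). In the same order of groups, the 6 recruited macrophage markers summed lower (45.3 to 175, 9.07 to 31.1 and 23.3 to 60.2 CPM), the 6 endothelial markers had higher medians (78.2, 192 and 147 CPM), and 3 adipocyte markers had medians of 9.81, 7.82 and 35.4 CPM. The part of these cell types was not tested either. Of 12 pancreatic acinar markers, 11 were present, at 1255 CPM summed in Sham 17, 2721 in RYGB 18 and 2832 in RYGB 19 against 10.4 to 17.3 in the other Sham, 30.9 to 59.8 in the other RYGB and 71.2 to 188 in the WM libraries. Their part in the results was likewise not tested, and without those 3 libraries the members called after RYGB went from 5 to 2 higher, and those called lower in WM from 3 to 4, by the addition of Etfdh.

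In 2 pairs of related genes, 1 member was called in WM and its partner was not called or was called the other way, and the sequence just upstream of each start is shown for that reason, chosen after the values were seen. Whether the partners of the flavoprotein pair differ was not tested. Acaa1a and Acaa1b encode closely related peroxisomal thiolases, and Etfa and Etfb encode the paired subunits of the electron transfer flavoprotein. Each run is the 120 bases before the RefSeq start in GRCm38.p6, read 5′ to 3′ on the strand of the gene, at chr9:119341174-119341293 (plus strand) for Acaa1a, chr9:119157094-119157213 (minus) for Acaa1b, chr9:55512244-55512363 (minus) for Etfa and chr7:43443952-43444071 (plus) for Etfb. Capitals mark the CCAAT box, written CCAAT or, on the other strand, ATTGG.
Acaa1a: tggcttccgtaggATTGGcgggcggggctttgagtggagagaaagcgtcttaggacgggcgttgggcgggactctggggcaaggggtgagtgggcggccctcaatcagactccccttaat
Acaa1b: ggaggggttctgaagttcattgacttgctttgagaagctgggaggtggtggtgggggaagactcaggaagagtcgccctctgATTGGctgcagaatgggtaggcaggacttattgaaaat
Etfa: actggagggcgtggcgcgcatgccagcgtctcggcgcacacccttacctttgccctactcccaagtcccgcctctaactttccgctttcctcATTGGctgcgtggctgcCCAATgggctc
Etfb: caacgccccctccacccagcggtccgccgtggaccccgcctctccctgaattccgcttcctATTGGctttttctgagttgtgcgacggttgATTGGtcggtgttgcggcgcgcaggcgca
Over the 250 bases before the start, Acaa1a and Acaa1b matched in 51.4% of aligned positions, close to the 50.7% of Etfa and Etfb. No unrelated pairs were aligned, so neither value has a baseline. The Acaa1a run lies inside its gene as annotated in GENCODE M21, which starts at chr9:119339676. RefSeq windows of 250 bases before to 50 after the start were found for 29 of the 34 members. A CCAAT box on either strand, looked for after the sequences had been seen, was present in 13 of the 29 members (44.8%) and in 37.5% of the 27025 genes of the promoter table. The single motif AGGNCA, on either strand, was present in 21 of 29 (72.4%) and in 54.8% of all genes. The box and the single motif were looked for only in the 250 bases before the start. The direct repeat typical of PPAR binding, 2 copies of AGGNCA separated by 1 base, was looked for in the whole window. It was found in 0 of the 29 members and in 0.451% of all genes. These letters are descriptions of the windows and not binding sites.

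Most of the fat-burning genes gave no call in any comparison. After RYGB, 5 of 34 members were called higher than in Sham (14.7%, against 12.6% of all tested genes) and 2 lower (5.88%, against 11% of all genes). After weight matching, 6 were called higher (17.6%, against 16.4%) and 3 lower (8.82%, against 14.9%). Between RYGB and WM none was called, while 1.05% of all genes were called higher and 0.412% lower. An unadjusted edgeR p under 0.05 was reached by 5 of 34 members and by 1447 of the 13121 tested genes. DESeq2 called 3 members between RYGB and WM (Crat and Acsl5 higher, Eci2 lower), and 228 genes higher and 133 lower over all genes. With edgeR, the members' shares of calls thus lay near or under the background in every direction. The median size of a member's log2 fold change was 0.24 for RYGB against Sham and 0.25 for WM against Sham. All genes, which were not matched to the members by level, had 0.40 and 0.47. The 5 genes higher after RYGB (Cpt2, Etfb, Acaa2, Eci2 and Ech1) and the 2 lower (Ppara and Crat) were all called in the same direction in WM, which used the same Sham libraries. WM added Acaa1a (higher) and Acaa1b (lower), and 25 members were called in no comparison. Scaling by library totals in place of TMM shifted the median of all genes by -0.35 (RYGB) and -0.33 (WM) and left 0 members called higher and 7 lower after RYGB, and 2 higher (Etfb and Eci2) and 9 lower after weight matching.

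**Figure D1:**
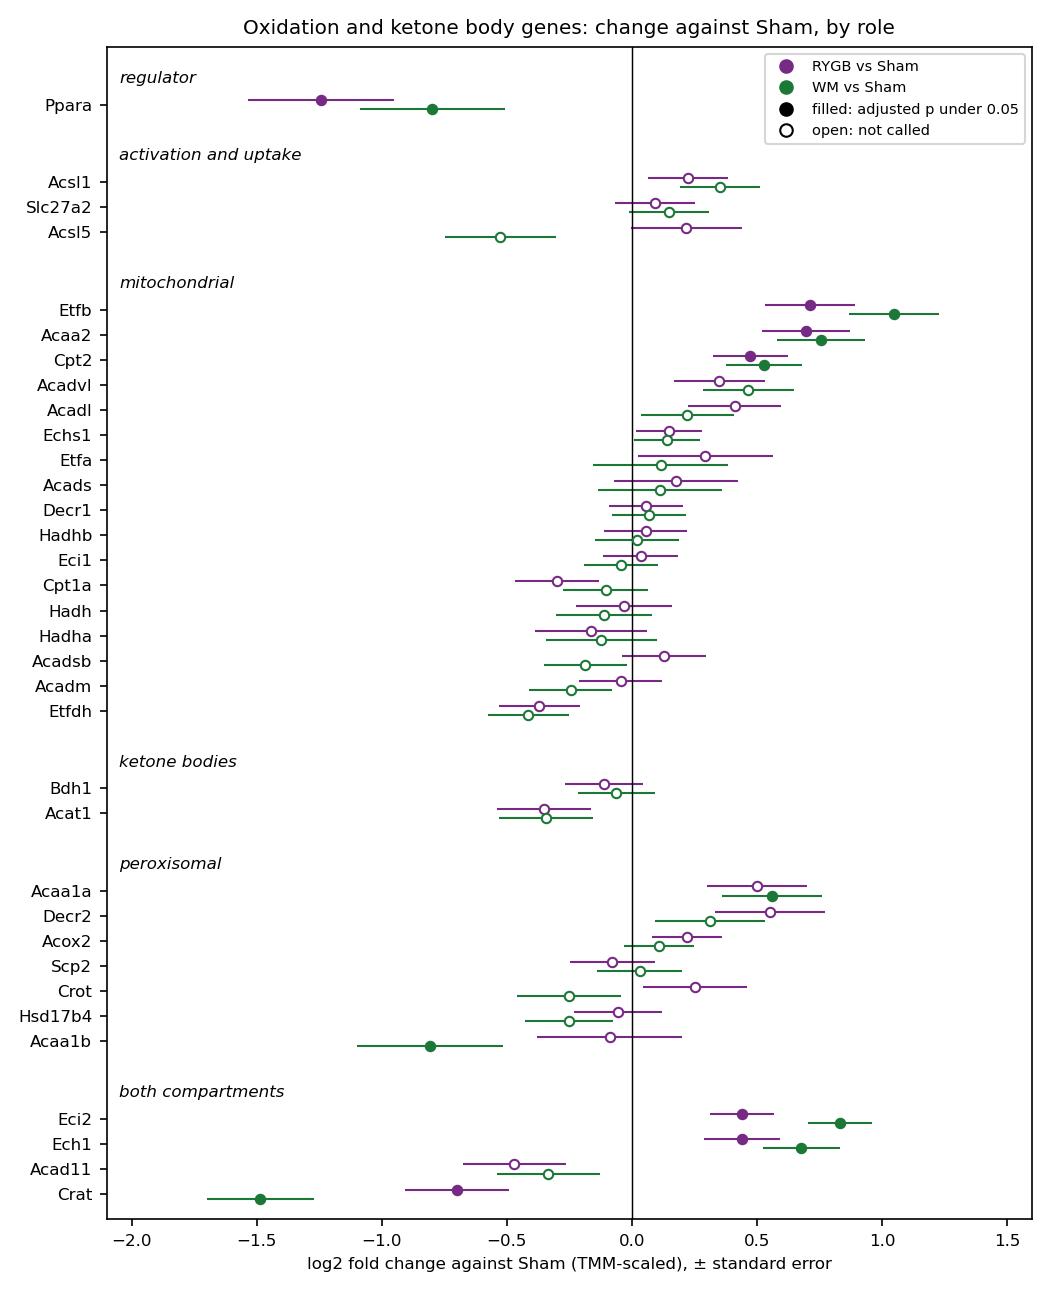
Log2 fold change against Sham (x axis, TMM-scaled, ± standard error) for each of the 34 members, grouped by role, with RYGB in purple and WM in green and filled points for calls. Ppara and Crat stand to the left in both treatments, Etfb, Acaa2, Cpt2, Eci2 and Ech1 to the right, and both ketone body genes lie between -0.35 and -0.06 with no call.

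Ppara, the gene of the regulator itself, was lower in both treated groups. Its level was 126, 414 and 558 CPM (lowest, median and highest) in Sham, 134, 191 and 484 CPM in WM and 76.2, 154 and 279.7 CPM in RYGB. The ranges overlapped through Sham 2, the lowest Sham library with the next at 351 CPM, and through WM 25, the highest WM library, and every RYGB library lay under the Sham median. The fall was -1.24 ± 0.29 on the log2 scale after RYGB (95% interval -1.84 to -0.65, edgeR adjusted p = 0.00254) and -0.80 ± 0.29 after weight matching (adjusted p = 0.0357). The RYGB call held in all 36 alternatives tried, with values from -1.58 to -1.14. The WM call was lost when any of 10 single libraries was left out (adjusted p up to 0.0768). RYGB and WM did not differ by a called amount (-0.45 ± 0.29, 95% interval -1.04 to 0.15).

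The genes of uptake and activation gave no call. Acsl1, the main long-chain acyl-CoA synthetase of liver, had log2 fold changes of 0.22 ± 0.16 after RYGB and 0.35 ± 0.16 after weight matching (edgeR adjusted p = 0.324 and 0.0914). Slc27a2, a transporter of the hepatocyte surface that is also a very long-chain acyl-CoA synthetase, moved by at most 0.15 (95% interval -0.18 to 0.47 in WM). Acsl5, a synthetase of mitochondrial and endoplasmic reticulum membranes, was the member of this role with the widest gap between the treatments. It stood at 123, 198 and 302 CPM in Sham, 78.6, 136 and 208 CPM in WM and 149, 235 and 333 CPM in RYGB. All 8 RYGB libraries lay above the WM median, but the ranges overlapped and the difference of 0.74 ± 0.22 missed the threshold (95% interval 0.29 to 1.2, adjusted p = 0.096 by edgeR and 0.0487 by DESeq2).

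In the carnitine shuttle, the gene of the inner step was called and that of the outer was not, and their difference was not tested. Cpt1a, the outer-membrane transferase that gates entry of long chains, had medians of 212 CPM in Sham, 190.4 in WM and 161 in RYGB, with overlapping ranges and no call (-0.30 ± 0.17 for RYGB, edgeR adjusted p = 0.206). Cpt2, the inner-membrane transferase that rebuilds the acyl-CoA inside, was higher in both treatments. Its level was 66.9, 88.6 and 99.2 CPM in Sham, 94.97, 109 and 206 CPM in WM and 101, 116 and 139.8 CPM in RYGB. All 8 RYGB libraries lay above all 8 Sham libraries, whereas the lowest WM library fell within the Sham range. The log2 fold change was 0.47 ± 0.15 after RYGB (edgeR adjusted p = 0.0209) and 0.53 ± 0.15 after weight matching (adjusted p = 0.00813). Without Sham 17, RYGB 18 and RYGB 19 the RYGB value was 0.44 and no longer called (adjusted p = 0.0802), and without Sham 5 it was 0.43 (adjusted p = 0.0501). With the longest-transcript form of the length correction described further on it was 0.34 (adjusted p = 0.0744).

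The acyl-CoA dehydrogenases, which open each round of the mitochondrial spiral for a given chain length, were not called in any comparison. Acadm, for medium chains, had log2 fold changes of -0.05 ± 0.17 and -0.25 ± 0.17 in RYGB and WM against Sham. Acadl, for long chains, had medians of 168, 179 and 224 CPM in Sham, WM and RYGB and a log2 fold change of 0.41 ± 0.19 after RYGB (edgeR adjusted p = 0.111). Acadvl, for very long chains, had medians of 235, 296 and 308 CPM and a log2 fold change of 0.47 ± 0.18 in WM (edgeR adjusted p = 0.0515, DESeq2 0.0403), called in 8 of the 36 alternatives. Acads and Acadsb, for short and short branched chains, had intervals that spanned 0 in every comparison. Their intervals still allowed changes of moderate size: for Acads from -0.33 to 0.68 after RYGB.

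Among the genes of the electron transfer flavoprotein, Etfb rose and its partner subunit did not pass the test. Etfb stood at 307, 389 and 463 CPM in Sham, 359.8, 843 and 1119.9 CPM in WM and 484, 616 and 726 CPM in RYGB. All RYGB libraries lay above all Sham libraries, and 7 of 8 WM libraries above the Sham median. The log2 fold change was 0.71 ± 0.18 after RYGB (edgeR adjusted p = 0.00451) and 1.05 ± 0.18 after weight matching (adjusted p = 6.04e-05), the largest rise of any member in either contrast. Etfa, which forms a heterodimer with it, stood at 89.6, 174 and 280.2 CPM in Sham, 40.6, 219 and 253 CPM in WM and 137, 232 and 379 CPM in RYGB. Its ranges overlapped widely, and its log2 fold changes were 0.29 ± 0.27 and 0.11 ± 0.27 (adjusted p = 0.456 and 0.779). The difference of Etfb and Etfa within a library, in log2 CPM, had medians of 1.12 in Sham, 1.96 in WM and 1.36 in RYGB, with ranges that overlapped. Etfdh, which passes the electrons on to ubiquinone, had lower medians in both treatments (82.5 CPM in WM and 87.2 in RYGB against 105 in Sham) with -0.41 ± 0.16 in WM, just outside the threshold (edgeR adjusted p = 0.0502, DESeq2 0.0395), and called in 14 of the 36 alternatives. Etfb is the shortest-transcript case among the called genes, with 893 bases, and 48.8% of the 50-base words in its last 500 bases also occur in the overlapping transcript Gm45233. A correction of each library for trends on GC content and transcript length brought Etfb to 0.30 after RYGB (adjusted p = 0.136) and to 0.50 after weight matching (adjusted p = 0.00947).

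Acaa2, the mitochondrial 3-ketoacyl-CoA thiolase that cuts off acetyl-CoA at the end of each round, was higher in every treated library than in any Sham library. Its level was 647, 1119 and 1200.1 CPM in Sham, 1339.8, 1585 and 3128 CPM in WM and 1369, 1685 and 2076 CPM in RYGB. The log2 fold change was 0.70 ± 0.18 after RYGB (95% interval 0.34 to 1.05, edgeR adjusted p = 0.00428) and 0.76 ± 0.18 after weight matching (adjusted p = 0.00149). Scaling by library totals left 0.36 and 0.41 (adjusted p = 0.116 and 0.0626), and the longest-transcript correction left 0.43 after RYGB (adjusted p = 0.051). The enzymes of the steps before it gave no call with TMM. Hadha and Hadhb, the subunits of the trifunctional protein that hydrates, dehydrogenates and cleaves long chains, had log2 fold changes of -0.16 ± 0.22 and 0.06 ± 0.17 after RYGB and -0.12 ± 0.22 and 0.02 ± 0.17 after weight matching. Under the longest-transcript correction Hadhb was called higher in both (0.46 and 0.48, edgeR adjusted p = 0.0163 and 0.00925). Echs1 and Hadh, the hydratase and dehydrogenase for shorter chains, had values from -0.11 to 0.15 in both contrasts with Sham, as did Eci1 and Decr1, which reshape the double bonds of unsaturated chains, with values from -0.04 to 0.07. Over the 14 mitochondrial members not called in a given contrast, the log2 fold changes ran from -0.37 to 0.41 after RYGB and from -0.41 to 0.47 after weight matching.

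**Figure D2:**
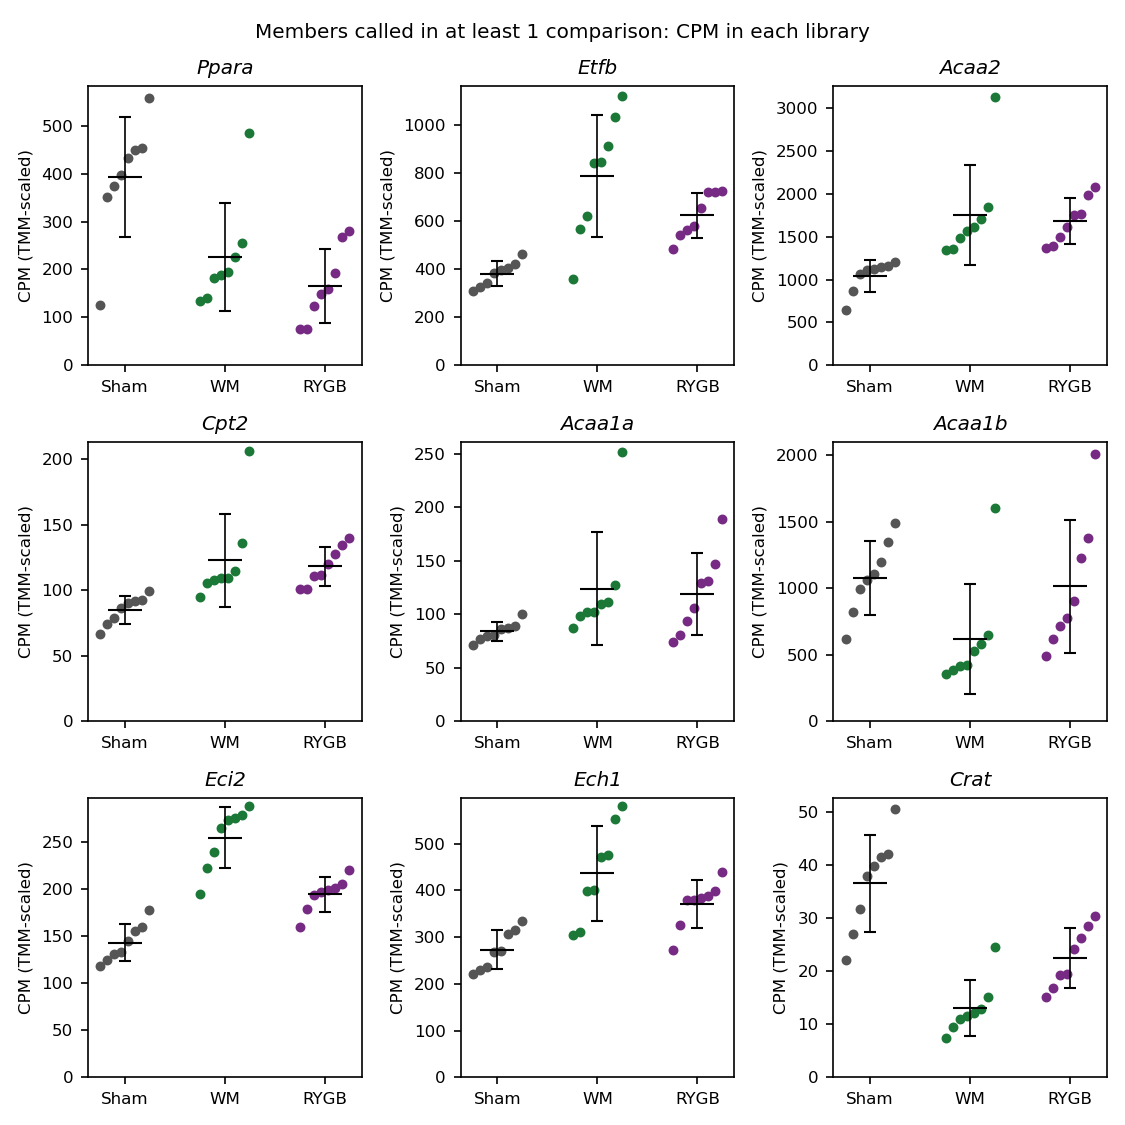
CPM (y axis, TMM-scaled, from 0) in each of the 8 libraries per group for the 9 members called in at least 1 comparison, with the mean and its SD as a dash and bar. Acaa2 and Etfb show the RYGB libraries clear of Sham, Eci2 shows the WM libraries clear of Sham, and single high WM points (WM 25) are visible for Ppara, Acaa2, Cpt2, Acaa1a and Acaa1b.

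The genes of ketone body formation on the list gave no call. Acat1, which condenses acetyl-CoA to acetoacetyl-CoA, stood at 301, 468 and 600.2 CPM in Sham, 219, 337 and 567 CPM in WM and 282, 361 and 453 CPM in RYGB. The ranges overlapped, and the log2 fold changes of -0.35 ± 0.19 and -0.34 ± 0.19 were not called (edgeR adjusted p = 0.178 and 0.165). Bdh1, which reduces acetoacetate to 3-hydroxybutyrate, had medians of 381, 328 and 315 CPM in Sham, WM and RYGB and a log2 fold change of -0.11 ± 0.16 after RYGB (95% interval -0.43 to 0.21).

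In peroxisomes, the twin thiolases moved in opposite directions in the calorie-restricted mice. Acaa1a was at 71.3, 83.5 and 101 CPM in Sham, 87.6, 106 and 252 CPM in WM and 74.5, 118 and 189 CPM in RYGB. Its rise in WM was 0.56 ± 0.20 (edgeR adjusted p = 0.0325), and the rise of 0.50 ± 0.20 after RYGB was not called (adjusted p = 0.0678). The WM call was lost without WM 25 (0.33, adjusted p = 0.126) and without Sham 5, Sham 6, Sham 16 or Sham 23 (adjusted p of 0.0504 to 0.0608). It was also lost with limma-voom and limma-trend (0.0519 and 0.0533), and under the GC and length correction with the principal transcript (0.32, adjusted p = 0.163). It held in 26 of the 36 alternatives, the longest-transcript correction among them. The RYGB rise was called in 6 of the 36, among them the longest-transcript correction (0.51, edgeR adjusted p = 0.0191). Acaa1b was at 616, 1086 and 1493 CPM in Sham, 359, 477 and 1607 CPM in WM and 491, 841 and 2011 CPM in RYGB. WM 25 was again the highest WM library, the next stood at 648 CPM, and the ranges overlapped with or without it. Its fall in WM was -0.81 ± 0.29 (adjusted p = 0.0346), lost when any of 10 other libraries was left out (adjusted p up to 0.0691), and it did not fall by a called amount after RYGB (-0.09 ± 0.29, 95% interval -0.68 to 0.50). All 8 RYGB libraries lay above the WM median of Acaa1b, and the difference between the treatments was 0.72 ± 0.29 (adjusted p = 0.305), which became a call without WM 25 (1.09, adjusted p = 0.0118) and under the GC and length correction (0.80, adjusted p = 0.0267). Within a library, Acaa1a minus Acaa1b in log2 CPM ran from -4.06 to -2.82 in Sham, from -2.67 to -1.74 in WM and from -3.41 to -2.60 in RYGB. The WM values of that difference thus lay above every Sham value, with RYGB between and overlapping both. Of the 50-base words in the last 500 bases of each transcript, 42.1% of Acaa1a and 38.8% of Acaa1b are shared with the other, so some reads could have been counted for either gene.

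The other peroxisomal members were not called in any comparison. Acox2, the oxidase for branched chains and bile acid side chains, had log2 fold changes of 0.22 ± 0.14 and 0.11 ± 0.14 in RYGB and WM. Hsd17b4, the D-bifunctional protein, and Scp2, whose longer product is a thiolase, had values from -0.25 to 0.03. Decr2, a reductase for unsaturated chains, had medians of 313, 302 and 464 CPM in Sham, WM and RYGB and a log2 fold change of 0.55 ± 0.22 after RYGB (edgeR adjusted p = 0.0681). Crot, which exports the shortened chains as carnitine esters, had medians of 442, 424 and 592 CPM, with 0.50 ± 0.21 between RYGB and WM (95% interval 0.08 to 0.93, adjusted p = 0.319). For Scp2, 73.2% of the 3′ words also occur in the pseudogene Scp2-ps2.

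The enzymes known from both mitochondria and peroxisomes held 3 calls in each treatment out of 4 genes, with Eci2 and Ech1 higher and Crat lower. Of all genes, 23.6% (RYGB) and 31.2% (WM) were called, but 4 genes are too few to set against these shares. Of the 3 calls after RYGB, Eci2 and Ech1 were lost without Sham 17, RYGB 18 and RYGB 19, and Crat was not. Eci2, an isomerase that moves double bonds to the position the spiral can use, stood at 118, 139 and 178 CPM in Sham, 195, 269.5 and 289 CPM in WM and 159, 198 and 221 CPM in RYGB. Every WM library lay above every Sham library. RYGB had a median in between and a range that overlapped both. The log2 fold change was 0.83 ± 0.13 after weight matching (edgeR adjusted p = 1.54e-05, called in all 36 alternatives) and 0.44 ± 0.13 after RYGB (adjusted p = 0.0119, but 0.0862 without Sham 17, RYGB 18 and RYGB 19). RYGB and WM differed by -0.39 ± 0.13, with no RYGB library above the WM median (adjusted p = 0.156 by edgeR and 0.0366 by DESeq2).

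Ech1, a dienoyl-CoA isomerase, stood at 222, 270.3 and 334 CPM in Sham, 304, 436 and 579.9 CPM in WM and 273, 382 and 439.8 CPM in RYGB. All 8 libraries of each treatment lay above the Sham median, although the ranges overlapped. The rises of 0.68 ± 0.15 in WM (edgeR adjusted p = 0.00123) and 0.44 ± 0.15 in RYGB (adjusted p = 0.035) were both lost under the GC and length correction, where they were 0.32 (adjusted p = 0.0893) and 0.14 (adjusted p = 0.517). Its transcript has 1267 bases, against a median of 2993 over all tested genes. The RYGB call of Ech1 was also lost without any of 10 single libraries (adjusted p up to 0.0721).

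Crat, the carnitine acetyltransferase that buffers acetyl-CoA as acetylcarnitine, fell in both treatments. It stood at 22.1, 38.9 and 50.5 CPM in Sham, 7.37, 11.9 and 24.6 CPM in WM and 15.2, 21.8 and 30.5 CPM in RYGB. No treated library reached the Sham median, although the ranges overlapped, and WM held the lowest values. The log2 fold change was -1.49 ± 0.21 in WM (95% interval -1.92 to -1.05, edgeR adjusted p = 5.38e-06) and -0.70 ± 0.21 in RYGB (adjusted p = 0.0143), and both calls held in all 36 alternatives. All 8 RYGB libraries lay above the WM median, and the difference between the treatments was 0.79 ± 0.21 (adjusted p = 0.0526). That difference was called by DESeq2 (adjusted p = 0.0219), without WM 25 (adjusted p = 0.00388) and under the GC and length correction (adjusted p = 0.00783). Acad11, a dehydrogenase for very long chains, had medians of 148, 108 and 109.7 CPM in Sham, WM and RYGB, and its log2 fold changes of -0.34 ± 0.21 and -0.47 ± 0.21 were not called (adjusted p = 0.221 and 0.0974).

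The mitochondrial and the peroxisomal steps were set side by side, as a description with no test. Of 19 mitochondrial members, ketone body genes included, 3 were called higher (15.8%, near the 12.6% for RYGB and 16.4% for WM of all genes) and 0 lower (11% and 14.9% of all genes) in each treatment against Sham, with median log2 fold changes of 0.06 (RYGB) and 0.02 (WM), which scaling by library totals turned to -0.28 and -0.27. Of 7 peroxisomal members, 0 were called after RYGB, with a median of 0.22, and 1 was called higher and 1 lower in WM, with a median of 0.03, and library totals turned these medians to -0.14 and -0.26. With 7 genes, these counts are too small to set against the background. All tested genes had medians of -0.01 in both contrasts. The mean log2 CPM of the 19 mitochondrial members less that of the 7 peroxisomal ones ran from -0.43 to -0.29 in Sham, from -0.31 to -0.06 in WM and from -0.55 to -0.18 in RYGB. The medians of that difference were -0.35, -0.21 and -0.43, so that WM stood highest and RYGB lowest, with ranges that overlapped between all groups. RYGB against WM gave a median of 0.20 over the peroxisomal members and 0.01 over the mitochondrial ones, and -0.02 over all genes.

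**Figure D3:**
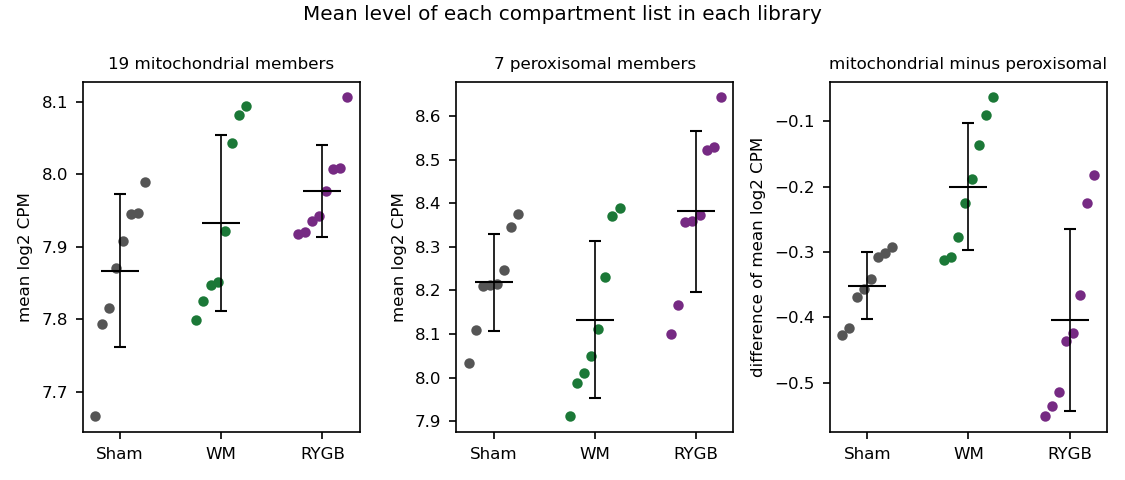
Mean log2 CPM of the 19 mitochondrial members (left), of the 7 peroxisomal members (middle) and their difference (right) in each library, with the mean and its SD per group; y axes do not start at 0. The groups overlap in all 3 panels, and the difference is highest in WM and lowest in RYGB by the median.

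The relation of level to transcript length differed between the groups. The slope of a gene's log2 CPM, less its mean over libraries, on log2 transcript length was 0.163 ± 0.0499 in Sham, -0.102 ± 0.0766 in WM and -0.0610 ± 0.0554 in RYGB (mean ± SD, n = 8 each), with no overlap between Sham and either treatment. The correction of each library took GC content and length together, so their parts were not separated. With it, the background became 13.9% higher and 8.24% lower for RYGB against Sham and 17.7% higher and 10.7% lower for WM. Of the members, 5 were then called higher and 2 lower after RYGB, and 5 higher and 4 lower in WM, of which 5 and 7 were the calls described above with the same direction. Acsl1 became a call at 0.56 after RYGB (edgeR adjusted p = 0.0321) and 0.78 in WM (adjusted p = 0.00244). Acadsb was then called higher after RYGB (0.53, adjusted p = 0.00804), and Eci1 lower in WM (-0.46, adjusted p = 0.0404). Ppara, Crat, Cpt2, Eci2 and Acaa2 kept their calls and directions in both contrasts with Sham under this correction. With the longest transcript of each gene in place of the principal one, Hadhb became a call, higher in both treatments. Against the main fit, that form lost 4 calls after RYGB (Cpt2, Etfb, Acaa2 and Ech1) and gained 4 (Acaa1a, Acadsb, Acsl1 and Hadhb). In WM it lost 1 (Ech1) and gained 3 (Acsl1, Eci1 and Hadhb).

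**Figure D4:**
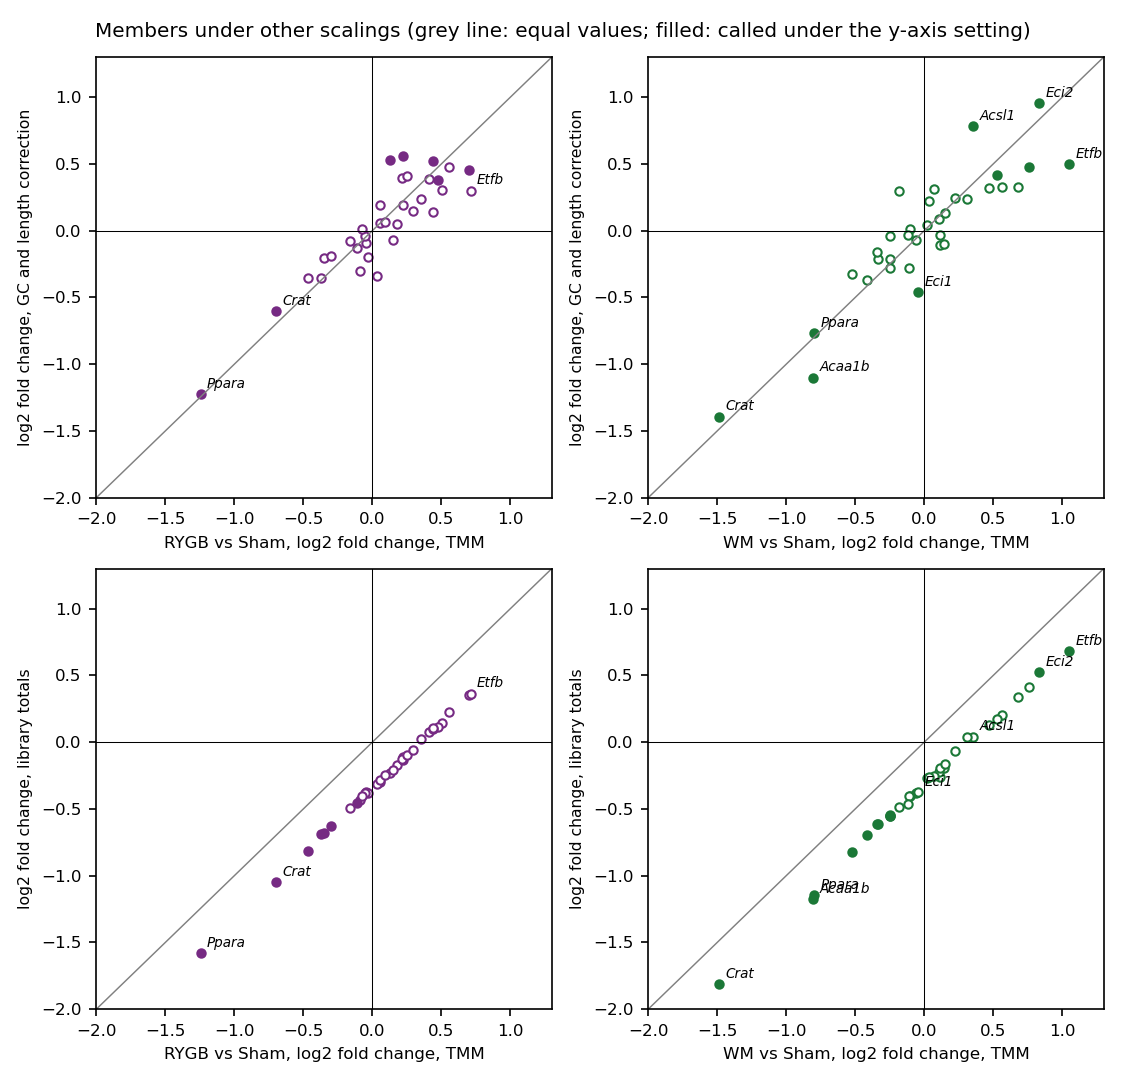
Log2 fold change of each member under the GC and length correction (top) and library totals (bottom) against the TMM value (x axis), for RYGB (left, purple) and WM (right, green), with filled points for calls under the y-axis setting and a grey line of equal values. Ppara and Crat stay low under both settings, the correction pulls Etfb toward 0 and raises Acsl1, and library totals move all members down together.

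Of 54 other genes of the same pathways, 53 were counted and tested, and 41.5% of them were called after RYGB and 50.9% in WM, against 20.6% and 26.5% of the members and 23.6% and 31.2% of all genes, a difference that was not tested. After RYGB, 17 were called higher and 5 lower, and in WM 18 were higher and 9 lower (12 and 11, and 11 and 15, with library totals). The 6 with the smallest p were Nudt7 and Nudt19, peroxisomal enzymes that break down coenzyme A, Acsm1, a medium-chain acyl-CoA synthetase, Bdh2, a cytosolic hydroxybutyrate dehydrogenase, Mcee, the methylmalonyl-CoA epimerase, and Pex11a, which promotes peroxisome division. Nudt7 averaged 107 ± 41.6 CPM over the Sham libraries, 479 ± 134 over WM and 309.8 ± 70.4 over RYGB (mean ± SD, n = 8 each), with log2 fold changes of 2.17 ± 0.21 and 1.54 ± 0.21 (edgeR adjusted p = 2.34e-08 and 4.62e-06). Pex11a fell, with log2 fold changes of -1.16 ± 0.18 after RYGB and -0.77 ± 0.18 in WM (adjusted p = 1.92e-05 and 0.00129). The other 4 rose in both treatments, with log2 fold changes of 0.83 to 1.21 after RYGB and 0.72 to 1.33 in WM. Between RYGB and WM, 1 of the 53 was called, Acot2, an acyl-CoA thioesterase of mitochondria (1.15 ± 0.30, edgeR adjusted p = 0.0463), named after its value was seen.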

How the data were processed

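RNA from 24 mouse livers was sequenced from the 3′ end with the QuantSeq kit, 50 bases per read, per the labels' protocols. The authors deposited raw counts per gene for 24 libraries and a normalized signal, which equals each raw count divided by 1 factor per library to within 5.1e-15. DESeq2 1.34 and R 4.1.2 are the tools in the submitters' processing notes. The sources used here do not give the aligner, genome build, annotation, counting strand or handling of multiply matching reads, and 17 of the 34 members overlap a gene of the other strand in GENCODE M21. Raw counts were used for all tests except 1 alternative on the normalized signal.

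Groups were taken from the labels. The counts went into edgeR 4.0.16 (R 4.3.3): filterByExpr by group, TMM, and a robust quasi-likelihood fit to all 24 libraries without covariates (common biological coefficient of variation 0.398). The 3 group differences were tested two-sided and adjusted by Benjamini-Hochberg over 13121 genes, with calls at an adjusted p under 0.05. P-values measure the spread between these samples, which the labels number but do not tie to single animals. Over 84 pairs within groups, chi-square divided by degrees of freedom was at least 24.9, so no pair within a group was the same library sequenced again. Pairs across groups were not compared. Separate libraries made from the same animal could not be recognized this way. The fits were tested on simulated data.

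Alternatives were DESeq2 1.42.0, RLE scaling, library totals, no filter, a stricter filter (1 CPM in at least 8 libraries), a fit to only the 2 groups compared, limma-voom (quality weights) and limma-trend with a pseudocount of 1 (limma 3.58.1), a GC and length correction per library (mgcv 1.9.3, principal transcript), leaving out Sham 17, RYGB 18 and RYGB 19, each library left out in turn, and a minimum change of 1.5-fold. Chosen after seeing the data were the correction with the longest transcript and leaving out those 3 libraries with WM 25. A member's count of 36 alternatives leaves out the 1.5-fold minimum. Lists were described by counts and medians without a test. Named were all 34 members and, of 54 other pathway genes, the 6 with the smallest p. The members and lists were chosen with earlier results of these data known. Promoters came from RefSeq (GRCm38.p6), matched by symbol, and transcript lengths from GENCODE M21 (GRCm38). Global alignments were made with Biopython. Acaa2 and Hsd17b4 promoters and protein sequences were not used here.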

Additional observations from a re-analysis of the deposited data

Results flagged for a closer look

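In 8 of 102 sets of 8 libraries (34 members in 3 groups), the highest or lowest library stood far from the rest by Dixon's gap criterion. Chance alone gives about 1 in 20. Of these 8, 6 were WM 25. That library was highest of its group for Cpt2 (206 CPM, next 136), Hadha (815 CPM, next 415), Acaa2 (3128 CPM, next 1848), Acaa1a (252 CPM, next 128) and Acaa1b (1607 CPM, next 648), and lowest for Etfa (40.6 CPM, next 148). The others were Ppara, lowest in Sham 2 (126 CPM, next 351), and Acadm, lowest in WM 13 (203 CPM, next 266). Over all 34 members, WM 25 was the highest WM library for 15 and the lowest for 7.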

How the results depend on the processing

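No paired analysis was possible because no sample number is shared between groups. After RYGB, members called higher (5 in the main analysis) numbered 0 with library totals, 8 with the compared groups alone, 9 with limma-voom, 2 without Sham 17, RYGB 18 and RYGB 19, 3 without those and WM 25, and 2 at a minimum of 1.5-fold, and members called lower (2) numbered 7 with library totals and 4 with limma-voom. With 1 library left out, 3 (without Sham 5) to 7 were higher. In WM, members higher (6) numbered 2 and lower (3) numbered 9 with library totals, and 5 were lower with limma-voom. With 1 library left out, 1 to 4 were lower, 1 of them without Sham 16, WM 1, WM 13, WM 20 or WM 27. Between RYGB and WM (0 higher, 0 lower), 2 members were higher and 1 lower with DESeq2, 3 were higher with limma-voom, 1 with limma-trend, 2 with either GC and length correction, 1 without the 4 libraries, and 0 to 2 with 1 library left out (2 without WM 9 or WM 25, 1 without Sham 2, RYGB 22 or RYGB 28). Median log2 fold changes with library totals were -0.28 (mitochondrial) and -0.14 (peroxisomal) after RYGB, and -0.27 and -0.26 in WM. Over all tested genes, library totals gave 751 higher (main 1659) and 3519 lower (main 1439) after RYGB, and 1044 higher (main 2147) and 3632 lower (main 1953) in WM, and limma-voom gave 2587 lower after RYGB. The share of calls that were higher fell with library totals from 53.6% to 17.6% (RYGB) and from 52.4% to 22.3% (WM), and was 62.8% and 62.3% with the GC and length correction. Between RYGB and WM, 228, 226 and 227 genes were higher (main 138) with DESeq2 and the corrections with principal and longest transcript, and 133, 97 and 101 lower (main 54), with 26 lower for the groups alone, 94 with limma-voom and 28 to 73 with 1 library left out. The cause of these moves was not tested. No called member changed sign in any alternative. The lowest count of any member in any library was 91, for Crat, and the part of depth in the results was not tested.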

Other observations

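Several members shared their extreme libraries across groups. RYGB 19 was the highest RYGB library for 10 of the 34 members, among them Acaa1a, Acaa1b, Cpt1a, Cpt2, Crat, Bdh1, Acox2 and Hadha, and WM 25 was the highest WM library for each of those 8. RYGB 19 was also one of the 3 libraries with the highest pancreatic acinar sums, at 2832 CPM. WM 25 stood at 114 CPM, within the range of the WM libraries. It had the highest hepatocyte sum of the WM libraries (133902 CPM, next 97247) and their lowest recruited macrophage sum (9.07 CPM). Its Kupffer cell, stellate and matrix, and endothelial sums lay within the range of the other WM libraries. Its TMM factor of 0.791 was the lowest of the 24 libraries. The part of these traits in the results was not tested. The level of Hadha less that of Hadhb, which encode subunits of one protein complex, had a median of 2.58 in log2 CPM in Sham, 2.26 in WM and 2.29 in RYGB, with ranges of 1.70 to 3.43, 1.21 to 4.19 and 1.64 to 3.01. The sum of Acaa1a and Acaa1b, most of it Acaa1b, had medians of 1174 CPM in Sham, 596 in WM and 953 in RYGB. This sum does not depend on how shared reads were split between the twin genes. It would depend on their handling if they were dropped or counted for both, which the sources do not say.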
